A study of Mus musculus with 14 samples.

Results

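To examine the broadest stretches of histone H3 lysine 4 dimethylation (H3K4me2) in MLL-AF9 leukemia cells, all H3K4me2 peaks of 5 kb or more were taken from the autosomes of the DMSO control list. These broad H3K4me2 domains numbered 1610 of 102640 autosomal H3K4me2 peaks, or 1.57%, in a series whose 10 peak lists held 532629 peaks. Their width in DMSO chose them, so that width is given as a description only. The other H3K4me2 lists, WDR5 and MLL1 had no part in the choice, but choosing wide peaks by itself raises the number of factor peaks inside and lowers the cover in another list. At the limit itself, 26 peaks of exactly 5000 bp lay just inside and 22 peaks of 4975 bp lay just outside.

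The cells were mouse bone marrow cells transduced with the MLL-AF9 fusion gene, grown with interleukin-3 and mapped by chromatin immunoprecipitation sequencing (ChIP-seq). MAF9 cells were kept for 2 days with the inhibitor MM-401 (20 µM) or with DMSO as its control. The second line was MLL1 flox/flox, ER-Cre+/-, MAF9 transduced, and was kept for 2 days with 4-hydroxytamoxifen (4OHT, 400 nM), which activates the Cre, or with ethanol (EtOH) as its control. H3K4me2 and WDR5 were mapped under all 4 conditions and MLL1 in DMSO and MM-401, each in 1 library, so no test between conditions was possible and differences are given with counting intervals only. All the cells carried MLL-AF9, the EtOH and 4OHT cells also the inducible Cre, and the 2 lines cannot be told apart from the 2 experiments. MLL1 was not mapped in the floxed line, so its loss with 4OHT could not be read here. The MLL1 antibody binds a C-terminal part that the fusion protein lacks.

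H3K4me2 is laid down by the MLL family of methyltransferases and marks the promoters and enhancers of active or poised genes. WDR5 is a core subunit that these enzymes share, and MLL1 is the member whose contact with WDR5 is blocked by MM-401. Most H3K4me2 peaks are narrow, and wide stretches of H3K4 methylation have been described at genes that define the identity of a cell type. The lists hold positions in the mouse build mm9 and no read counts, so the amount of H3K4me2 in a domain is unknown. A domain that is split or shortened in another list is one that was called so there.

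The domains were few but long. They had a median width of 6400 bp, with quartiles at 5500 and 8050 bp, and the widest reached 31325 bp. Of the 1610 domains, 657 were under 6000 bp wide, 541 were 6000 to 7999 bp, 308 were 8000 to 11999 bp and 104 were wider than that. Together they spanned 11.8 Mb, or 12.4% of all autosomal H3K4me2 bases of the DMSO list, although they made up 1.57% of its peaks. They lay in dense surroundings, since the gap to the nearest further H3K4me2 peak had a median of 175 bp and was 500 bp or less at 1243 domains (77.2%). Another domain was found within 100 kb of 787 domains (48.9%).

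The same limit applied to the other lists gave different numbers. MM-401 had 1690 H3K4me2 peaks of 5 kb or more, close to the 1610 of DMSO. EtOH had 3146, which was 95.4% more than DMSO, and 4OHT had 2088, which was 33.6% fewer than EtOH. The relative change from EtOH to 4OHT was -48.6% at 10 kb or more, with 535 against 275 peaks, and -70.2% at 20 kb or more, with 47 against 14. DMSO and MM-401 stood at 185 and 196 at 10 kb and at 16 and 10 at 20 kb. Peaks of this width held 25.1% of the H3K4me2 bases in EtOH, 17.3% with 4OHT and 13.9% with MM-401, while the total H3K4me2 length ranged from 89.1 Mb with MM-401 to 98.9 Mb in EtOH.

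The higher number with MM-401 rested on the way peaks were separated. When peaks of a list up to 500 bp apart were joined, DMSO had 3571 domains and MM-401 had 3274, a difference of -297 in place of 80. The order of EtOH over 4OHT remained with joined peaks, 5262 against 4079. EtOH thus stood apart from the other 3 lists in the number of broad peaks with either count. It differed from DMSO and MM-401 in cell line and experiment together, and from 4OHT, of the same line, in treatment. Each list came from a single library of unknown read depth. What goes with the number in EtOH was not tested.

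**Figure D1:**
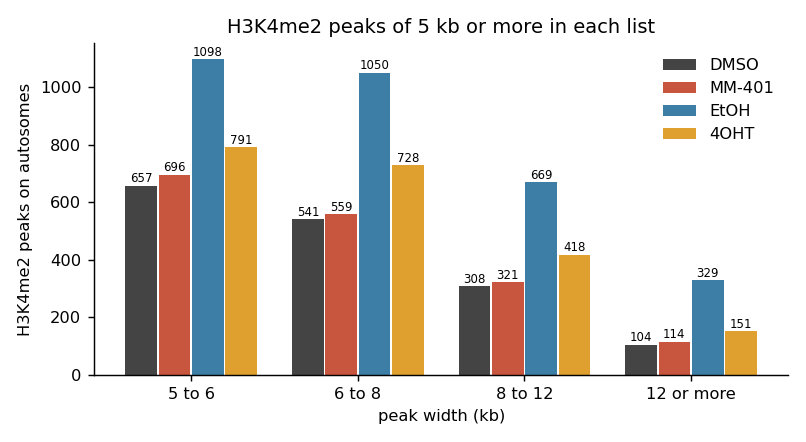
H3K4me2 peaks of 5 kb or more on autosomes, in 4 classes of width (x axis, kb), with the number of peaks on the y axis and printed over each bar. Each bar is 1 list from 1 library, without error bars, and EtOH is highest in every class, with 329 peaks of 12 kb or more against 104 in DMSO, 114 with MM-401 and 151 with 4OHT.

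Domains were found on all 19 autosomes. Chromosome 11 held the most, 148 or 9.19% of them, beside 7.18% of all autosomal H3K4me2 peaks. Chromosome 1 followed with 143 or 8.88% (95% Wilson interval 7.59 to 10.4%), beside 7.36% of all. The share on chromosome 1 was 8.4% (7.17 to 9.82%) for the broad peaks of MM-401, 5.44% (4.70 to 6.28%) in EtOH and 5.89% (4.96 to 6.98%) with 4OHT. Among the 19 compared, it was the 1 autosome where both MAF9 intervals lay clear of both intervals of the floxed line. The share of all H3K4me2 peaks on chromosome 1 was taken for DMSO only. Whether the difference is particular to broad peaks was therefore not tested.

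To ask whether the MLL1 complex occupied the domains, the WDR5 and MLL1 peaks inside them were counted. WDR5 was present in 916 of the 1610 domains in DMSO, or 56.9% (54.5 to 59.3%), where 11.1% of all autosomal H3K4me2 peaks held a WDR5 peak. MLL1 was present in 584, or 36.3% (34.0 to 38.7%), where 3.84% of all peaks did. Both shares rise with width by length alone, so the number per megabase is the closer measure. By peak centres, WDR5 stood at 116.5 per Mb in domains, at 155.8 per Mb in the 11635 H3K4me2 peaks of 2000 to 4999 bp and at 120.6 per Mb over all H3K4me2 peaks. MLL1 stood at 66.8 per Mb in domains, 61.7 per Mb in the peaks of 2000 to 4999 bp and 44.6 per Mb over all. Per length in DMSO, WDR5 in domains was therefore lower than in the peaks of the next width and near the overall value, and MLL1 was at or above both, with no test of these differences.

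Within the domains WDR5 was spread thinly. In DMSO, 694 domains held no WDR5 peak, 557 held 1, 237 held 2, 88 held 3 and 34 held 4 or more, with 6 as the highest number. For MLL1 in DMSO, 1026 domains held none, 423 held 1, 125 held 2, 24 held 3 and 12 held 4 or more, with 5 as the highest. WDR5 rose from 53.0% (49.1 to 56.8%) of domains under 6000 bp to 67.9% (62.4 to 72.8%) at 8000 to 11999 bp and was 65.4% (55.8 to 73.8%) above that. MLL1 rose over the same classes from 28.6% (25.3 to 32.2%) to 41.9% (36.5 to 47.5%) and 56.7% (47.1 to 65.8%). In the widest class the intervals of WDR5 and MLL1 overlapped.

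There were 356 domains with both, 560 with WDR5 only, 228 with MLL1 only and 466 with neither. MLL1 was found in 38.9% (35.8 to 42.1%) of domains with WDR5 and in 32.9% (29.5 to 36.4%) of those without, and the intervals overlapped. Domains with both were wider, with a median of 7188 bp against 6100 bp for those with neither. Of the 797 MLL1 peaks in domains, 65 overlapped a WDR5 peak, or 8.16% (6.45 to 10.3%), where 5.55% of all autosomal MLL1 peaks did, and they lay in 62 domains. The WDR5 and MLL1 lists of DMSO come from different peak callers.

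WDR5 was called in more domains after each treatment than in its solvent. It was present in 1013 domains with MM-401, or 62.9% (60.5 to 65.2%), against 56.9% in DMSO, and in 1137 with 4OHT, or 70.6% (68.3 to 72.8%), against 1062 or 66.0% (63.6 to 68.2%) in EtOH. All H3K4me2 peaks of the DMSO list showed the same order at a lower level, 12.1% with MM-401, 13.7% in EtOH and 14.2% with 4OHT. Per Mb, WDR5 centres in domains stood at 152.7 with MM-401, 160.0 in EtOH and 195.8 with 4OHT. Over all H3K4me2 peaks they stood at 138.1, 159.4 and 173.5, and in those of 2000 to 4999 bp at 171.3, 205.5 and 221.1. Domains were thus below the next width in each list. They were near the overall value in EtOH and above it with MM-401 and 4OHT. Per domain, 566 held more WDR5 peaks with MM-401 than in DMSO, 352 held fewer and 692 the same number. From EtOH to 4OHT, 623 held more, 440 fewer and 547 the same. WDR5 was found under all 4 conditions in 510 domains (31.7%) and under none in 139 (8.63%). The shares were 11.8% and 22.1% for H3K4me2 peaks of 2000 to 4999 bp and 2.69% and 73.2% for all H3K4me2 peaks, and they move with width by length alone. MLL1 with MM-401 was called in 1139 domains, or 70.7% (68.5 to 72.9%), where 8.87% of all H3K4me2 peaks held it, but its DMSO list came from a different peak caller and the 2 MLL1 numbers cannot be compared. Per Mb, MLL1 centres with MM-401 stood at 193.0 in domains, 157.9 in the peaks of 2000 to 4999 bp and 118.8 over all.

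**Figure D2:**
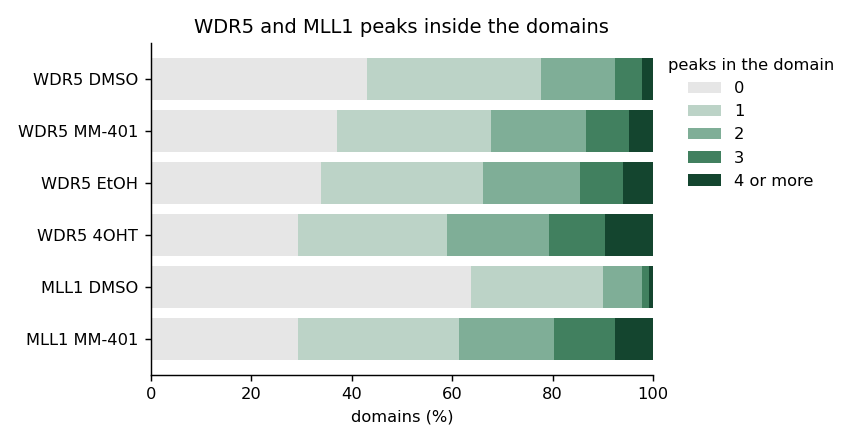
Share of the 1610 DMSO domains (x axis, %) that held 0, 1, 2, 3 or 4 or more peaks of each WDR5 and MLL1 list (y axis). Domains without WDR5 made up 43.1% in DMSO, 37.1% with MM-401, 34.0% in EtOH and 29.4% with 4OHT, and the 2 MLL1 bars come from different callers.

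Most DMSO WDR5 peaks in domains were not called at the same position in another list. Of the 1439 DMSO WDR5 peaks that touched a domain, 536 were overlapped by a WDR5 peak with MM-401, or 37.2% (34.8 to 39.8%), where 40.3% of all autosomal DMSO WDR5 peaks were. EtOH overlapped 30.2% (27.9 to 32.7%), where 34.7% of all were, and 4OHT overlapped 30.3% (28.0 to 32.7%), where 30.3% of all were. Over all widths, WDR5 peaks in domains were thus found again in a share at or below that of WDR5 peaks at large. Both had the same median width of 175 bp. The share rose with the width of the WDR5 peak, for MM-401 from 15.5% at 75 to 100 bp to 76.5% from 301 bp upwards. At 301 bp or more, EtOH overlapped 62.9% and 4OHT 60.6%. Outside domains, WDR5 peaks of that width stood at 71.2% with MM-401, 67.9% in EtOH and 56.7% with 4OHT. At this width domains were higher with MM-401 and 4OHT and lower in EtOH, with overlapping intervals. Domains were lower beyond the intervals with MM-401 at 201 to 300 bp, 46.1% (40.6 to 51.7%) against 56.2% (54.3 to 58%). They were also lower in EtOH at 75 to 100 bp, 10.4% (7.51 to 14.3%) against 19.6% (18.3 to 21.1%). In the other narrower classes the intervals overlapped. When a distance of up to 2 kb was allowed, the shares of all 1439 peaks were 72.3% with MM-401, 73.2% in EtOH and 73.0% with 4OHT. Of the 1439 peaks, 158 or 11% were overlapped in all 3 other lists, beside 10.8% of all WDR5 peaks, and 600 or 41.7% in none, beside 36.6% of all.

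Every domain had H3K4me2 under the other 3 conditions. None of the 1610 lacked overlap in MM-401, EtOH or 4OHT, while 30.6%, 30.6% and 34.1% of all autosomal DMSO H3K4me2 peaks did. The covered part of a domain had a median of 96.1% with MM-401, 99.6% in EtOH and 97.7% with 4OHT, with lower quartiles of 90.8%, 96.4% and 92.3%. Summed over all domains, 93.5% of the bases were covered with MM-401, 96.7% in EtOH and 93.9% with 4OHT, and 89.7% in all 3. Less than 50% was covered at 8 domains with MM-401, 5 in EtOH and 16 with 4OHT, where 39.4%, 40.3% and 43.7% of all H3K4me2 peaks fell under that level. Nearly all peaks of this background are narrower than a domain. A wide peak can hardly lack overlap, which needs only 1 shared bp, so the contrast with all peaks follows at least in part from width. Peaks of the next width were not measured in this way.

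Complete cover was less common and differed between the lists. A domain was covered over its whole length in 250 cases with MM-401, or 15.5% (13.8 to 17.4%), in 776 in EtOH, or 48.2% (45.8 to 50.6%), and in 455 with 4OHT, or 28.3% (26.1 to 30.5%). Over all H3K4me2 peaks the corresponding shares were 20.5%, 31.1% and 23.5%. For MM-401 domains were below this background, and for EtOH and 4OHT above it. Nearly all background peaks are narrower than a domain, and width can move this share either way. Peaks of the next width were not measured for whole cover either. In all 3 lists, 145 domains (9.01%) were covered whole by 1 peak.

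The same order was seen for splitting. A fragment is an H3K4me2 peak of the other list that overlaps the domain, and 2 or more fragments were found at 881 domains with MM-401, or 54.7% (52.3 to 57.1%), at 574 in EtOH, or 35.7% (33.3 to 38.0%), and at 768 with 4OHT, or 47.7% (45.3 to 50.1%). Narrow peaks can seldom be split, and over all H3K4me2 peaks the shares were 11.1%, 10.8% and 11.4%. Most split domains had few pieces, with 2 at 462 domains with MM-401, 320 in EtOH and 372 with 4OHT, and 4 or more at 222, 134 and 211. The gaps between the pieces were short, with a median of 150 bp in each list. Only 7.74% of the 1808 gaps with MM-401, 6.04% of 1125 in EtOH and 8.08% of 1634 with 4OHT were longer than 500 bp.

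Splitting therefore depended on these short gaps. When peaks up to 500 bp apart were joined in the other list alone, 7.33% of domains had 2 or more fragments with MM-401, 3.29% in EtOH and 6.65% with 4OHT, and whole cover rose to 39.0%, 76.8% and 54.2%. The order of the 3 lists in whole cover was the same. Between MM-401 and 4OHT, the intervals of the share with 2 or more fragments then overlapped, 6.16 to 8.71% and 5.53 to 7.97%.

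**Figure D3:**
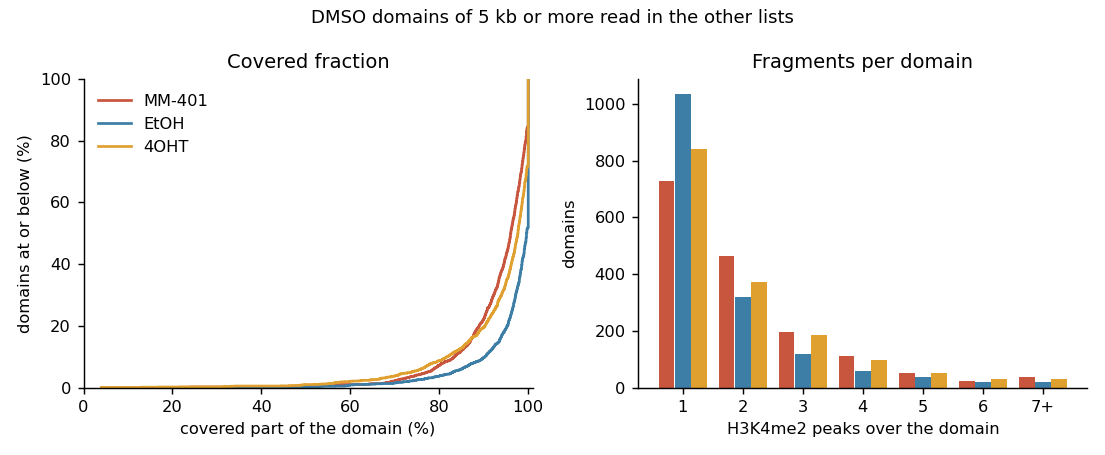
The 1610 DMSO domains read in the 3 other H3K4me2 lists. Left, the share of domains (y axis, %) with at most the covered part on the x axis (%). Right, the number of domains (y axis) by the number of H3K4me2 peaks over them (x axis), where a single peak covered 729 domains with MM-401, 1036 in EtOH and 842 with 4OHT.

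The widest fragment kept most of the domain. It measured 5500 bp at the median with MM-401, 5950 bp in EtOH and 5675 bp with 4OHT, or 92.3%, 99.6% and 95.5% of the domain. It was shorter than 50% of the domain at 123 domains with MM-401, 47 in EtOH and 120 with 4OHT. The peak that supplied it was itself 5 kb or wider at 1186 domains with MM-401, or 73.7% (71.5 to 75.8%), at 1441 in EtOH, or 89.5% (87.9 to 90.9%), and at 1248 with 4OHT, or 77.5% (75.4 to 79.5%), against 3.08%, 8.62% and 4.65% of all H3K4me2 peaks. The latter are mostly narrow, so this contrast too follows at least in part from width. In EtOH this peak was wider than the domain in 73.4% of cases, against 37.1% with MM-401 and 48.3% with 4OHT.

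The order of the lists was different in a related measure that gave each list the same number of broad peaks. Here a domain counted if any of these peaks shared at least 1 bp with it, not only the peak that supplied the widest fragment. When each list was reduced to its 1610 widest autosomal peaks, a choice made after the data had been seen, 72.0% (69.7 to 74.1%) of DMSO domains met such a peak with MM-401, 65.8% (63.5 to 68.1%) in EtOH and 67.8% (65.5 to 70.1%) with 4OHT. With equal numbers MM-401, the list of the same cell line, had the highest share, beyond the interval of EtOH but not that of 4OHT. Taking the limit of 5 kb, 1054 domains (65.5%) had a peak of that width in all 3 lists and 107 (6.65%) in none, and the latter were narrower, with a median of 5425 bp against 6975 bp. There were 171 domains that met a 5 kb peak in EtOH and 4OHT but not with MM-401, and 83 that did so with MM-401 and in EtOH but not with 4OHT.

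Because the domains were chosen for their width in DMSO, the choice itself lowers their cover in any other list, and the same measures were taken in the opposite direction. Of the 1690 MM-401 domains, 16% (14.4 to 17.9%) were covered whole in DMSO and 57.0% (54.6 to 59.3%) had 2 or more fragments there. These values lie beside 15.5% and 54.7% for DMSO domains with MM-401, with overlapping intervals in each case. Whole cover was thus as rare in one direction as in the other between DMSO and MM-401, within counting error. Between EtOH and 4OHT the directions differed, as 4.48% (3.81 to 5.26%) of the 3146 EtOH domains were covered whole with 4OHT and 55.1% (52.9 to 57.2%) of the 2088 4OHT domains in EtOH. A peak of 5 kb or more lay over 59.8% (58.1 to 61.5%) of EtOH domains with 4OHT and over 93.5% (92.4 to 94.5%) of 4OHT domains in EtOH. EtOH domains were covered whole in DMSO in 2.23% (1.76 to 2.80%) of cases and with MM-401 in 2.35% (1.88 to 2.94%). No domain of any list lacked overlap in any other.

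Cover was lost both at the ends and inside the domains. Uncovered bases came to 768.4 kb with MM-401, 386.5 kb in EtOH and 724.2 kb with 4OHT, and of these 50.1%, 58.6% and 49.7% lay in internal gaps and the rest at the outer edges. With each domain cut into 20 equal bins, the outermost bins were covered to 74.3% with MM-401, 87.9% in EtOH and 79.3% with 4OHT. The central bins were covered to 97.4%, 98.8% and 97.1%. The uncovered bases coincided in part, since 45.9% of those with MM-401 were also uncovered with 4OHT and 25.4% also in EtOH. In the opposite direction, 48.7% of those with 4OHT and 50.4% of those in EtOH were uncovered with MM-401 as well.

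In the MAF9 lists, WDR5 and MLL1 centres were fewer at these ends than the share of length there, as were WDR5 centres in EtOH. Of the 1377 DMSO WDR5 centres in domains, 15.0% (13.2 to 16.9%) fell in the outer 10% at either end, which together make up 20% of the length, and 54.0% (51.3 to 56.6%) fell in the middle 50%. For the 790 MLL1 centres of DMSO the values were 11.9% (9.82 to 14.3%) and 52.5% (49.0 to 56.0%), and the latter interval held 50%. On the same domains the outer parts held 17.9% (16.3 to 19.7%) of WDR5 centres in EtOH, 19% (17.4 to 20.6%) with 4OHT and 11.7% (10.3 to 13.3%) with MM-401. The interval of EtOH lay below the 20% of length and overlapped that of DMSO, while that of 4OHT held the 20%. The middle 50% held 48.6% (46.4 to 50.9%) of WDR5 centres in EtOH and 49.9% (47.9 to 51.9%) with 4OHT, near its share of length. Almost every WDR5 site kept H3K4me2. The base at the WDR5 centre was covered at 99.9% (99.5 to 100%) of sites with MM-401, 99.8% (99.4 to 99.9%) in EtOH and 99.6% (99.2 to 99.8%) with 4OHT, higher than the cover of the central bins. At MLL1 centres the shares were 99.0% (98.0 to 99.5%), 99.5% (98.7 to 99.8%) and 98.9% (97.8 to 99.4%).

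**Figure D4:**
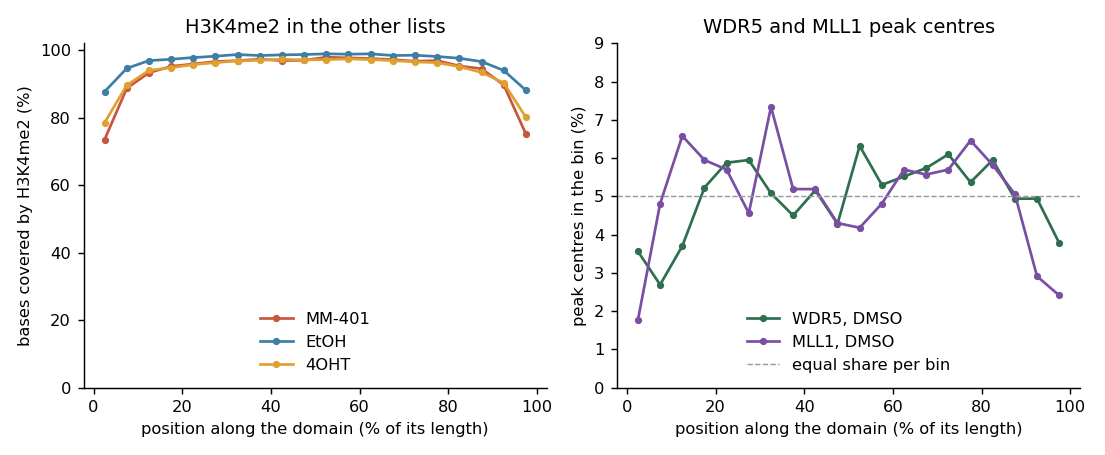
Left, bases of the 1610 DMSO domains covered by H3K4me2 of each other list (y axis, %) along the length of the domain in 20 bins (x axis, % of its length), with cover lowest in the outermost bins, at 74.3% with MM-401 for the 2 ends together. Right, share of the DMSO WDR5 and MLL1 peak centres in each bin (y axis, %), with a dashed line at the equal share of 5% per bin.

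Domains with WDR5 or MLL1 stayed in 1 piece more often than those without. With MM-401, 2 or more fragments were found at 61.4% (57.7 to 64.9%) of the 694 domains without WDR5, 51.2% (47.0 to 55.3%) of the 557 with 1 peak, 50.2% (43.9 to 56.5%) of the 237 with 2 and 41.8% (33.4 to 50.7%) of the 122 with 3 or more. In EtOH the shares were 42.1%, 35.2%, 22.8% and 26.2%, and with 4OHT 53.5%, 47.2%, 37.1% and 37.7%. The control list of the floxed line thus showed the same direction as the treated lists. Domains with more WDR5 were also wider, with medians of 6150 bp without it and 7775 bp with 3 or more peaks, although wider domains were split more often. For MLL1 the shares with MM-401 were 57.4% (54.4 to 60.4%) of 1026 domains without it, 54.6% (49.8 to 59.3%) of 423 with 1 peak and 37.9% (30.8 to 45.6%) of 161 with 2 or more.

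Domains with WDR5 were split less often than those without in every class of width and every list, though not always beyond the intervals. At 6000 to 7999 bp, 47.1% (41.4 to 52.8%) of 291 domains with WDR5 and 66.0% (59.9 to 71.6%) of 250 without were split with MM-401, and 41.9% (36.4 to 47.7%) and 56.8% (50.6 to 62.8%) were split with 4OHT, in both cases beyond the intervals. In EtOH they were 29.9% (24.9 to 35.4%) and 38.8% (33.0 to 45.0%), with overlapping intervals. Under 6000 bp the shares were 47.4% (42.2 to 52.7%) and 54.0% (48.5 to 59.5%) with MM-401, with overlapping intervals, and 29.6% (25 to 34.6%) and 40.1% (34.8 to 45.7%) in EtOH, where they just parted. At 8000 to 11999 bp the intervals parted in EtOH only, at 33% (27 to 39.6%) against 50.5% (40.8 to 60.1%). From 12000 bp upwards, with 68 and 36 domains, the intervals overlapped in every list. The shares were 63.2% against 77.8% with MM-401, 33.8% against 58.3% in EtOH and 58.8% against 66.7% with 4OHT.

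H3K4me2 cover was then read beside the loss of WDR5 from a domain. WDR5 was called in DMSO and absent with MM-401 in 197 domains, and 53.8% (46.8 to 60.6%) of these had 2 or more fragments with MM-401. Where WDR5 was called in both, at 719 domains, the share was 48.5% (44.9 to 52.2%), and the intervals overlapped. Domains that gained WDR5 with MM-401 were split in 55.4% (49.7 to 61%) of cases, and those without WDR5 in either list most often, in 65.8% (61 to 70.2%). From EtOH to 4OHT, the 223 domains that lost WDR5 were split with 4OHT in 56.5% (49.9 to 62.8%) of cases and the 839 that kept it in 39.5% (36.2 to 42.8%), a gap beyond the intervals. The 298 domains that gained WDR5 with 4OHT were split in 53% (47.4 to 58.6%), within the interval of those that lost it, and the 250 without WDR5 in either in 61.2% (55 to 67%). Splitting was thus as frequent where WDR5 was gained as where it was lost, within counting error. The 189 domains with WDR5 in DMSO but not in EtOH, which compares control cells of both lines, were split in EtOH in 41.3% (34.5 to 48.4%) of cases and the 727 with WDR5 in both in 28.1% (24.9 to 31.4%), again beyond the intervals. Domains with WDR5 in EtOH but not in DMSO were split in 37.9% (32.9 to 43.2%) and those with none in either in 46% (40.9 to 51.1%). Domains with WDR5 in both lists were the wider ones in all 3 comparisons, with medians of 6650 to 6750 bp. The 48 domains that held no WDR5 and no MLL1 peak in any list were split in 81.2% of cases with MM-401, 66.7% in EtOH and 62.5% with 4OHT.

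Single domains are named by position in mm9, as deposited, by a fixed rule. The widest domain lay on chromosome 16 from 49857901 to 49889225, was 31325 bp long and held 1 WDR5 and 1 MLL1 peak in DMSO. It was covered to 85.7% in 17 fragments with MM-401, to 98.6% in 3 fragments in EtOH and to 94.7% in 11 fragments with 4OHT, with widest pieces of 13325, 25900 and 20975 bp. Cover was thus lowest and the pieces most numerous with MM-401, and EtOH was nearest to DMSO. The second widest, chr10:20850401-20878975, was covered to 99.4%, 100% and 99.3% and held 4 WDR5 peaks in DMSO, 4 with MM-401, 9 in EtOH and 3 with 4OHT. The next 3 lay on chromosome 15 from 77643801 to 77671850, on chromosome 14 from 61350726 to 61378500 and on chromosome 13 from 37949701 to 37976675. All 3 were covered to at least 92.4% in every other list. The one on chromosome 14 shared the highest number of DMSO MLL1 peaks, 5, and the one on chromosome 13 held 2 WDR5 peaks in DMSO, 6 with MM-401 and 0 in EtOH and 4OHT.

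Only 1 domain held 6 WDR5 peaks in DMSO and 8 held 5, of which the 2 widest are named, so their changes do not stand for the other ties. The domain at chr8:67349776-67357375 held 6 WDR5 peaks in DMSO, 2 with MM-401, 2 in EtOH and 1 with 4OHT, and was covered to 96.4%, 84.9% and 82.6%. The domain at chr6:52158201-52175675, 17475 bp long, held 5 WDR5 peaks in DMSO, 0 with MM-401, 5 in EtOH and 10 with 4OHT, and 4 MLL1 peaks in DMSO and 5 with MM-401. Its H3K4me2 was 1 peak in each other list, covering 100% with MM-401, 94.7% in EtOH and 92.0% with 4OHT. WDR5 peaks were counted as called and not joined. In this domain all but 1 of the DMSO WDR5 peaks lay side by side, between 0.063 and 0.787 kb from the centre. With MM-401, WDR5 peaks lay outside the domain, between 9.888 and 10.187 kb from its centre, where DMSO also had 1. The numbers of WDR5 peaks are therefore not numbers of separate sites. The third, chr4:134308951-134323700, held 5 WDR5 peaks in DMSO, 1 with MM-401, 1 in EtOH and 2 with 4OHT and was covered to 98.1%, 100% and 100% by 1 peak each. Beside the one on chromosome 14, 3 domains held 5 DMSO MLL1 peaks. Those at chr10:79340751-79352425 and chr1:75207601-75215000 were covered whole by 1 wider peak in all 3 lists. The narrowest of these ties, chr2:36086076-36093225, falls outside the naming rule and was added after its values were seen. It held no WDR5 in any list and was covered to 97.2% in 2 fragments with MM-401, 96.9% in 2 in EtOH and 97.6% in 1 with 4OHT. The widest domain covered whole by 1 peak in all 3 lists was chr16:35758701-35773050, 14350 bp long.

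The least covered domains differed between the lists. With MM-401 the lowest was chr2:155976551-155985675, 9125 bp long, without WDR5 or MLL1 in any list. It was covered to 22.7% in 10 fragments, the widest of 525 bp, and to 33.2% with 4OHT and 73.2% in EtOH. The next 2, chr2:180198901-180203900 and chr14:73089576-73094975, were covered to 24.0% and 24.1% with MM-401, 65.5% and 79.2% in EtOH and 56.5% and 56.0% with 4OHT. Their low cover with MM-401 is what chose these 3 domains, and between the other lists cover was higher in EtOH than with 4OHT at each.

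The domains named for the floxed line were chosen for low cover in EtOH or with 4OHT, so their higher cover with MM-401 is a description. The domain at chr4:109325976-109337400, 11425 bp long with 2 WDR5 peaks in DMSO and none in the 3 other WDR5 lists, was covered to 25.6% in EtOH and 16.8% with 4OHT but to 96.3% by 1 peak with MM-401. The domain at chr13:112262601-112272000, with no WDR5 or MLL1 in any list, was covered to 46.8% in EtOH, 3.99% with 4OHT and 79.5% with MM-401. At chr1:94727026-94732325 the values were 43.4%, 31.6% and 84.4%, and at chr16:85800251-85805375 they were 60.0%, 12.7% and 99.5%. All 5 domains under 50% in EtOH were also under 50% with 4OHT, whereas 3 of the 8 under 50% with MM-401 were so with 4OHT and 0 in EtOH. Of the 21 domains under 50% in any list, 13 had no WDR5 in DMSO, or 61.9% (40.9 to 79.2%), an interval that holds the 43.1% of all domains.

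Most of the domains with the highest numbers of fragments were long, and a longer domain has room for more fragments. With MM-401, chr2:3658401-3684425, 26025 bp long, was cut into 23 fragments at a cover of 83.5%, against 4 fragments and 97% in EtOH and 10 and 96.3% with 4OHT. The domain at chr4:59546076-59561225 had 15, 5 and 10 fragments in the same order. In EtOH the highest numbers were 15 at chr8:34775526-34798450, which held 4 WDR5 peaks in DMSO, and 13 at chr19:12648851-12660775. Next came chr2:155976551-155985675, with 12 fragments in 9125 bp. With 4OHT, after the domain on chromosome 16, chr15:36707801-36721825 had 11 fragments, against 8 with MM-401 and 4 in EtOH. The domain on chromosome 8 had its lowest cover with 4OHT, 59.8% against 72.8% in EtOH and 87.9% with MM-401.

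**Figure D5:**
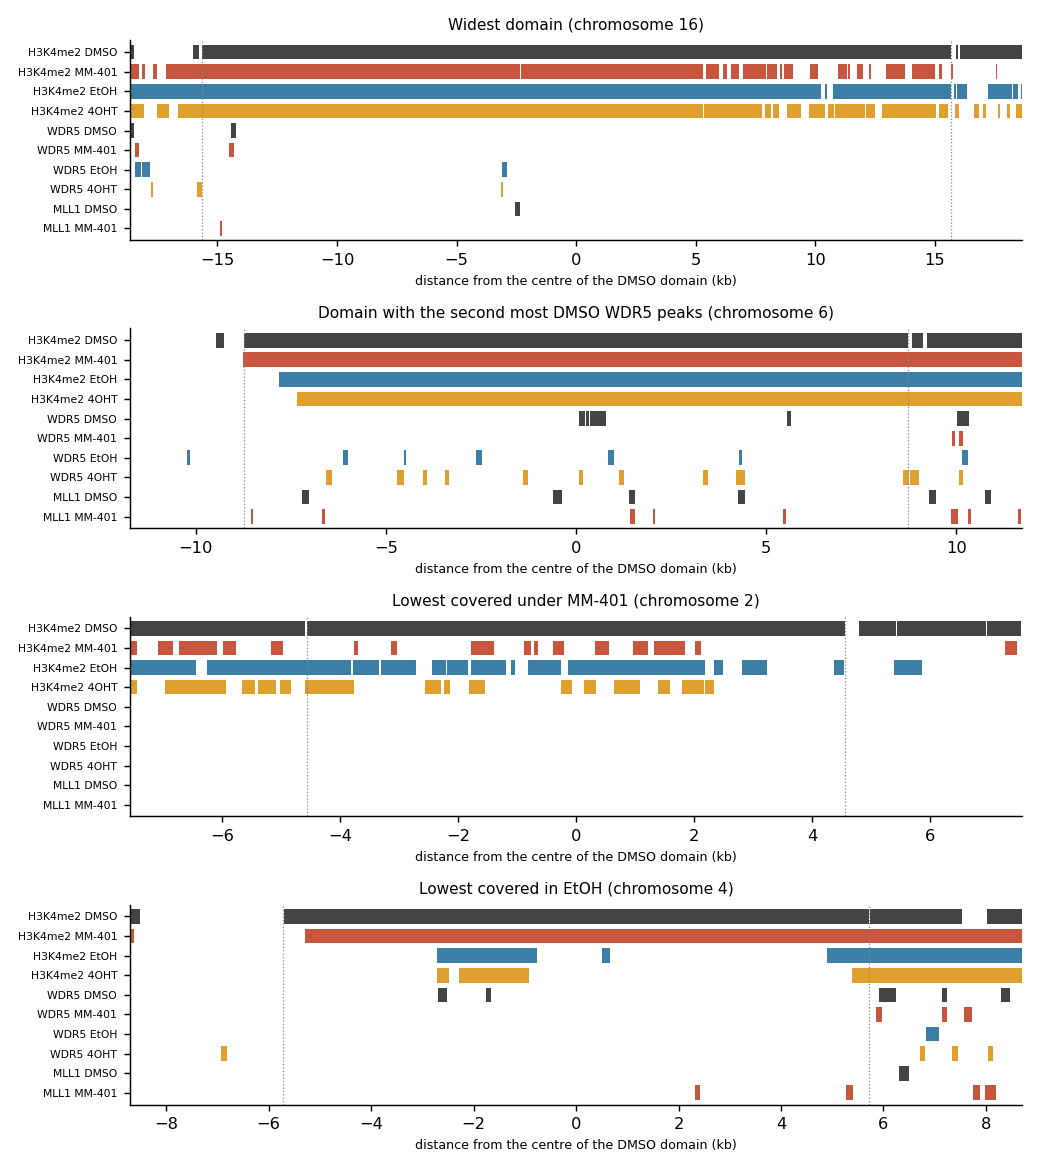
Peaks of all 10 lists (y axis) over 4 domains chosen by the naming rule, drawn as bars against the distance from the centre of the DMSO domain (x axis, kb), with dotted lines at its ends and 3 kb on either side. The panels show 17 fragments with MM-401 in the widest domain, unbroken H3K4me2 with 0 WDR5 peaks with MM-401 in the domain on chromosome 6, and the domains with the lowest cover with MM-401 (22.7%) and in EtOH (25.6%).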

How the data were processed

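ChIP-seq peak lists of 10 libraries were analysed, and 4 input samples were not used here. Per the submitters' processing notes, reads were aligned with Bowtie to mm9. The authors deposited peak positions only, without scores or counts, called on 1 library at a time. In 9 lists the peaks were named HPEAK and lay on a 25 bp grid, read as 1-based. The DMSO MLL1 list had neither, the study's text names MACS, and its starts were read as 0-based. For HPeak thresholds and tool versions nothing was stated in these sources. The gene table at hand was in GRCm38 and was not used, so no genes are named. Peaks were overlapped (at least 1 bp) with Python 3.11.15 and numpy 2.4.6. Shares carry 95% Wilson intervals (scipy 1.17.1), which cover counting only and treat neighbouring domains as independent. Read depth is unknown. The code recovered 100% of simulated fragments in the 1610 domains and gave the same values as bedtools 2.31.1. Figures used matplotlib 3.10.9.

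Domains were named by rule: the 5 widest, the 3 with most DMSO WDR5 or MLL1, the 3 with lowest cover and with most fragments in each other list, and the widest covered whole by 1 peak in all 3, with ties going to the wider domain. The members, lists and measures were chosen with earlier results of these data known. Width classes, bins, gap lengths and the splits by WDR5 content were chosen after the lists had been examined. Alternatives were width limits of 4, 7.5 and 10 kb, lists reduced to equal length, joined peaks, peak centres, wider sharing of WDR5 and the widest 50% of WDR5 and MLL1 lists.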

Additional observations from a re-analysis of the deposited data

Results flagged for a closer look

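The number of H3K4me2 peaks of 5 kb or more had an opposite sign of change in each cell line, higher by 80 under MM-401 than in DMSO (1690 against 1610) and changed by -1058 under 4OHT relative to EtOH (2088 against 3146). With 1 library per condition this difference between the lines was not tested. With peaks up to 500 bp apart joined, the first change was -297 and the second -1183, so the opposite signs did not remain.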

How the results depend on the processing

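Of 137 values recomputed, 46 moved by less than their counting interval or by less than 1.5 times for a count, 90 moved by more and 1 changed sign. Values are given in the order MM-401, EtOH and 4OHT, with DMSO first for numbers of peaks. In each setting where the 3 lists gave a value, whole cover stayed lowest with MM-401 and highest in EtOH. With a width limit of 4 kb, WDR5 was found in 54.3% and MLL1 in 31.4% of domains. Whole cover was 18, 48.6 and 29%, 2 or more fragments 48.9, 33 and 44%, a peak over the limit 78.5, 90.7 and 80.7%, kept WDR5 37.7, 32.1 and 30.5% and fragments in DMSO of the reciprocal domains 52.7, 77.9 and 61.6%. Peaks over the limit numbered 2837, 3038, 5094 and 3593, and the changes with MM-401 and 4OHT were 201 and -1501. At 7.5 kb, WDR5 was found in 66.1% and MLL1 in 44.1% of domains. Whole cover was 16.5, 47.3 and 25.9%, 2 or more fragments 59, 38.8 and 54.1%, a peak over the limit 69.8, 88 and 73.9%, kept WDR5 36.5, 26.1 and 29.7% and fragments in DMSO of the reciprocal domains 64, 88.2 and 73.8%. Peaks over the limit numbered 510, 528, 1174 and 676, and the changes with MM-401 and 4OHT were 18 and -498. At 10 kb, WDR5 was found in 69.7% and MLL1 in 50.8% of domains. Whole cover was 16.8, 47.6 and 27.6%, 2 or more fragments 64.9, 40 and 58.9%, a peak over the limit 64.9, 88.1 and 71.9%, kept WDR5 37.9, 24.6 and 25.8% and fragments in DMSO of the reciprocal domains 68.9, 92.1 and 76.4%. Peaks over the limit numbered 185, 196, 535 and 275, and the changes with MM-401 and 4OHT were 11 and -260. With peaks up to 500 bp apart joined in all H3K4me2 lists, WDR5 was found in 61.3% and MLL1 in 32.1% of domains. Whole cover was 12, 49.3 and 26.7%, 2 or more fragments 27.8, 12.3 and 19.1%, a peak over the limit 76.6, 92.7 and 83.5%, kept WDR5 36.6, 36.3 and 34.1% and fragments in DMSO of the reciprocal domains 27.5, 49.1 and 38.3%. Peaks over the limit numbered 3571, 3274, 5262 and 4079, and the changes with MM-401 and 4OHT were -297 and -1183. With only the other list joined, whole cover was 39, 76.8 and 54.2%, 2 or more fragments 7.33, 3.29 and 6.65% and a peak over the limit 94.6, 98 and 94.6%. With the H3K4me2 lists reduced to 91305 peaks each, only the share of EtOH domains with 2 or more fragments in DMSO moved, to 80.2%. That reduction removed narrow peaks alone and left every broad peak in place, so most values could not move by construction. Kept WDR5 was 72.3, 73.2 and 73% with peaks up to 2 kb apart shared and 45.6, 38.3 and 34.1% with the widest 50% of each list, where WDR5 was found in 35% and MLL1 in 23% of domains. With 1610 widest peaks per list, an alternative added after the data were seen, any of these peaks overlapped 72, 65.8 and 67.8% of domains by at least 1 bp. Counting by peak centres gave 54.7% of domains with WDR5 and 36% with MLL1. Joining and other limits change the set of domains by construction, and for other shifts the cause was not tested. No paired analysis was possible because each condition had 1 library and no test was run, and without read depth a loss of signal below the calling threshold cannot be told from a gap.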
